A study of Rattus norvegicus with 8 samples.

Results

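The growth hormone receptor and IGF-1 axis of the liver was followed through 8 genes, chosen as every non-control array probe whose gene name was Ghr, Prlr, Stat5a, Stat5b, Socs2, Cish, Igf1 or Igfals. All 8 of the 25512 gene names on the array were found, with 20 probes between them. Transcript levels were measured in whole liver of male Sprague Dawley rats, an outbred laboratory strain. In the high-fat group, 4 samples came from rats kept for 12 weeks on a diet with 60% fat, and in the control group 4 samples came from rats kept for 12 weeks on a normal diet. The labels give a weight of 180 to 200 g in both groups without saying when it was taken, and name no other treatment. Whether the samples are separate animals is not stated outright, and a p-value here therefore measures the spread between samples, which may be technical.

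Growth hormone from the pituitary binds its receptor, encoded by Ghr, on hepatocytes and activates the kinase JAK2, which phosphorylates STAT5A and STAT5B. The phosphorylated STAT5 proteins enter the nucleus and raise transcription of Igf1, of Igfals and of the feedback inhibitors Socs2 and Cish. Most IGF-1 in blood is made by the liver and circulates bound to IGFBP3 and to the acid-labile subunit, the product of Igfals. In rats, growth hormone is secreted in pulses in males and more continuously in females, and this pattern sets sex differences in several liver cytochrome P450 genes.

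Probes lying in coding sequence are shown because the comparisons below turn on which stretch of a transcript a probe reads. The first Ghr probe reads the hormone-binding extracellular part of the receptor, the second the intracellular part, and the third the end of the coding sequence, with the stop codon in capitals. The Igf1 probe spans the end of mature IGF-1 and the start of the E-peptide, and the Cish probe lies in the SH2 domain. These placements come from reading frames of the probe letters, not from an annotation.
Ghr A_44_P320858: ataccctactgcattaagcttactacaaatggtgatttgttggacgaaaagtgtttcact
Ghr GT_Rn_GE_00175429: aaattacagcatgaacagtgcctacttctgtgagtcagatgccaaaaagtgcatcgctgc
Ghr A_64_P041812: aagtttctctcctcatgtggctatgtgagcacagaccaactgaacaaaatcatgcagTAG
Igf1 A_64_P052740: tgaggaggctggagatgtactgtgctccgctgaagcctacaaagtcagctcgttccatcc
Cish A_43_P16086: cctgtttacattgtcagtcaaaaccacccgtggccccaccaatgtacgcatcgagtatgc

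Levels are normalized log2 intensities, in which 0 is the 75th percentile of an array's probes well above background on all 8 arrays. A gene is represented by its brightest probe, and levels are compared only within a probe. None of the 8 genes passed an adjusted p of 0.05 by limma over all 31535 tested probes, where 0.877% of 18587 genes did (65 or 0.35% higher and 98 or 0.527% lower on the high-fat diet). None of their 18 tested probes passed either, against 0.907% of all tested probes. At an unadjusted p under 0.05, 5 of the 8 genes differed, 4 of them higher (Ghr, Prlr, Igf1 and Igfals) and 1 lower (Stat5a) in high-fat livers, against 15.6% of all tested genes (7.24% higher and 8.4% lower). The high-fat and control arrays did not overlap for 2 of the 8, Ghr and Igf1, both higher, against 11.1% of all tested genes (4.86% higher and 6.23% lower). By probe, 10 of 18 had an unadjusted p under 0.05, against 15.5% of all probes, and 4 of 18 had separate groups, against 10.6%. Probes of a gene are repeat readings, and those with separate groups were all of Igf1 or Ghr, so the probe counts add no further genes with separate groups. The log2 change was positive for 6 of the 8, with a median of 0.69, against a median of 0.00 over all tested genes. In whole liver, fewer cells of a type and less RNA per cell cannot be told apart.

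**Figure D1:**
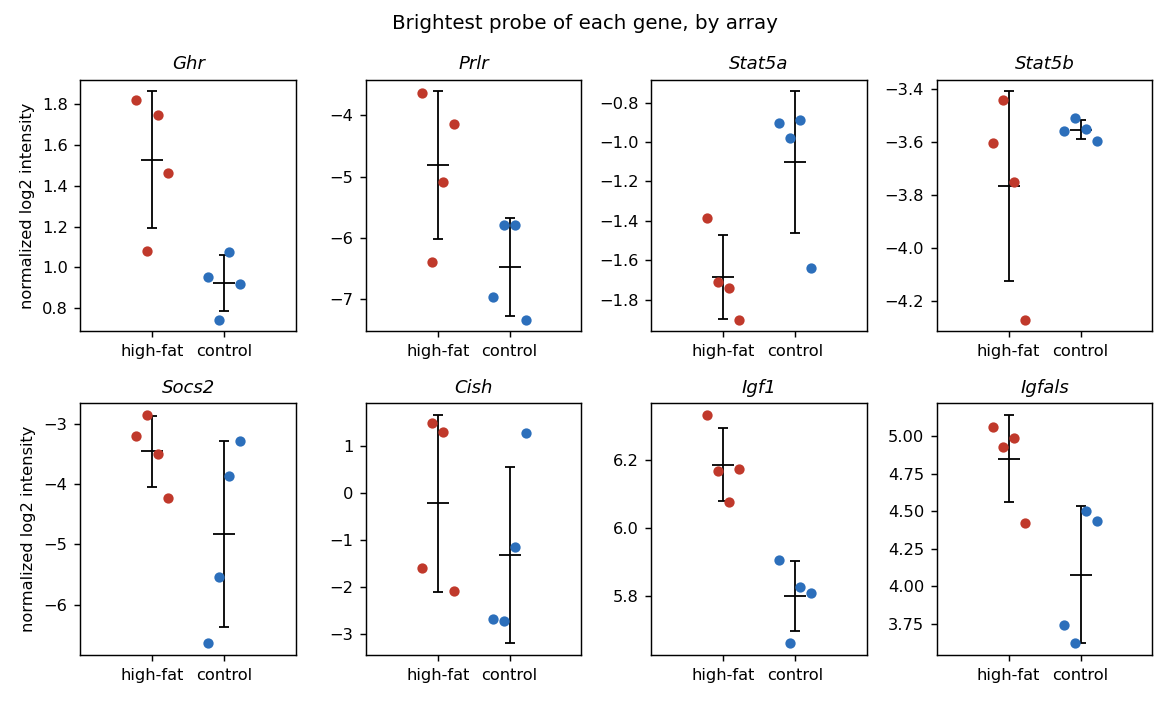
Normalized log2 intensity (y axis, a separate scale for each gene) of the brightest probe of each of the 8 genes in 4 high-fat arrays (red, left) and 4 control arrays (blue, right), with the mean and SD as bars. All 4 high-fat arrays lie above all 4 control arrays for Ghr and Igf1, while the other 6 genes overlap.

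On each array, 50.4% to 71.9% of the 46883 probes exceeded background clearly, and high-fat replicate 1 and control replicate 1 were the dimmest. A single slide held the 8 arrays in 2 rows, each row with 2 high-fat and 2 control arrays, so each change is also given within a row. The 8 hepatocyte markers were all tested and none passed, with a median log2 change of -0.02 and a summed level of 506 to 662 in high-fat and 501 to 663 in control livers. A summed level adds the normalized intensities, not on the log2 scale, of a list's genes on an array. Its brightest genes therefore weigh most, and it need not follow the other genes of the list. Of 5 tested erythroid markers (median 1.05; summed level 71.7 to 115 in high-fat and 28.0 to 71.8 in control livers) and 16 tested clock genes (median 0.56, 14 of them positive; 7.20 to 17.1 in high-fat and 4.79 to 12.4 in control livers), none passed. Among markers of other cell types, Lrat (log2 change 7.20) and Reln (1.34) of the 11 stellate cell genes and Cd3g (-1.44) of 10 tested lymphocyte genes did. Over all tested genes, 0.35% passed higher and 0.527% lower. These 3 markers were named after their values were seen, and the alternatives were not run for them. The stellate genes had a median log2 change of 0.08, with Des at -0.70 (adjusted p = 0.13) and Acta2 at -0.52 (adjusted p = 0.19), both with separate groups, on the other side. The lymphocyte genes had a median of -0.24, with 3 of the 10 above 0. Summed levels of the stellate genes were 4.70 to 7.20 in high-fat and 3.61 to 4.56 in control livers, and those of the lymphocyte genes 0.455 to 0.795 in high-fat and 0.935 to 1.29 in control livers. For 11 macrophage genes the median log2 change was -0.26 (summed level 34.4 to 52.0 in high-fat and 49.0 to 68.0 in control livers), for 6 cholangiocyte genes -0.55 (0.655 to 0.876 in high-fat and 0.940 to 1.27 in control livers) and for 8 endothelial genes -0.09 (11.4 to 16.1 in high-fat and 8.22 to 15.2 in control livers). Median changes were 0.27 over 4 adipocyte, 0.48 over 2 skeletal muscle and 0.39 over 2 exocrine pancreas genes tested, none of which passed. The part of these cells, of depth and of the hour of day in the values below was not tested.

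The mean level of growth hormone receptor transcript was higher on the high-fat diet at the probe for the extracellular part, without passing the adjustment, and the other 3 Ghr probes gave smaller differences. The extracellular probe A_44_P320858 (chr2:52524230-52524289, minus strand, rn4) read 1.82, 1.08, 1.75 and 1.46 in high-fat replicates 1 to 4 and 0.95, 0.74, 1.08 and 0.92 in control replicates 1 to 4. The groups were barely separate, since the lowest high-fat array and the highest control array both round to 1.08. The means were 1.53 ± 0.34 in high-fat and 0.92 ± 0.14 in control livers (SD, n = 4 each), a 1.52-fold difference. The log2 change of 0.61 had a 95% confidence interval of 0.19 to 1.02 and did not pass the adjustment (limma, adjusted p = 0.17). Within the slide rows it was 0.60 and 0.61.

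The probe for the end of the Ghr coding sequence, A_64_P041812 (chr2:52497358-52497417, minus strand), read -1.48, -1.57, -1.34 and -1.62 in high-fat and -1.45, -1.75, -1.95 and -1.73 in control livers. The 2 groups overlapped, and the log2 change was 0.22 (-0.11 to 0.55, adjusted p = 0.53). Probe A_43_P11817 (chr2:52496746-52496805, minus strand) was at a log2 change of -0.07 (-0.56 to 0.42, adjusted p = 0.92). The probe for the intracellular part, GT_Rn_GE_00175429, had no genome position in the files and was at a log2 change of 0.12 (-0.24 to 0.48, adjusted p = 0.78). The extracellular probe lies 26812 bases from the nearer of the other 2 placed probes on the rn4 genome. In rats, alternative splicing of Ghr also yields a shorter transcript for the soluble growth hormone binding protein, which holds the extracellular but not the intracellular part. The other Ghr probes also read dimmer than the extracellular probe. The part of that transcript, or of the dimmer signal, in these values was not tested.

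Whether the Ghr probes differed from each other was tested on the difference of their log2 values within each array. The extracellular probe exceeded A_43_P11817 by 3.88 to 4.60 on high-fat arrays and by 3.15 to 3.78 on control arrays, so the groups did not overlap. The log2 change was larger by 0.68 at the extracellular probe (exact two-sided permutation test, p = 0.0286, adjusted p = 0.2 over 14 probe pairs). Against the intracellular probe it was larger by 0.49 (exact permutation p = 0.0286, adjusted p = 0.2), and against the end of the coding sequence by 0.39 (exact permutation p = 0.0571, adjusted p = 0.267). The smallest p that 4 arrays against 4 allow is 0.0286, so after adjustment over 14 a pair could pass only if most of the pairs were at that p. None of the 14 pairs passed, which therefore cannot show that the probes of a gene agree. Averaged over all 4 probes, the log2 change of Ghr was 0.22 (adjusted p = 0.54).

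**Figure D2:**
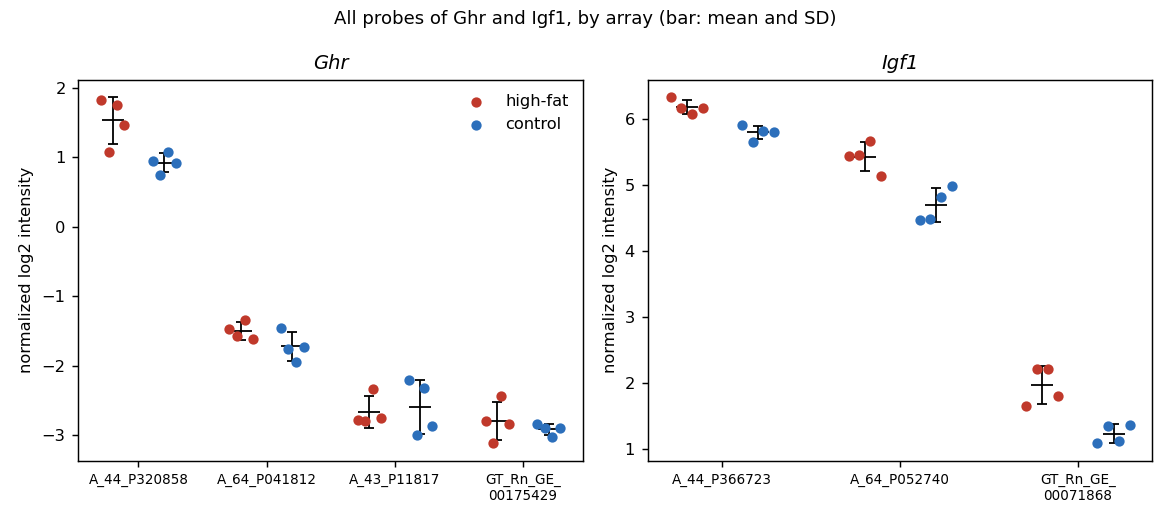
Normalized log2 intensity (y axis) of all 4 Ghr probes (left) and all 3 Igf1 probes (right), with high-fat arrays in red to the left of control arrays in blue and the mean and SD as bars. The groups separate at Ghr probe A_44_P320858 and at all 3 Igf1 probes, and overlap at the other 3 Ghr probes.

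Prlr encodes the prolactin receptor, a relative of the growth hormone receptor that also signals through STAT5. Its brightest probe, GT_Rn_GE_00165185, read -3.64, -6.38, -5.09 and -4.14 in high-fat and -6.95, -5.79, -5.79 and -7.33 in control livers. High-fat replicate 2 lay within the control range and the other 3 lay above it. This gave a log2 change of 1.65 (0.25 to 3.05, adjusted p = 0.25), or 1.36 and 1.95 within the slide rows. With a different background correction it was 0.70, and without the 2 dimmest arrays 1.10. Prlr was near the detection limit: the probe was well above background on 4 of 4 high-fat and 3 of 4 control arrays.

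The other 2 Prlr probes were well above background on 3 high-fat arrays and no control array, and so were not tested. A_44_P187181 read -4.92, -8.69, -6.45 and -5.73 in high-fat and -7.72, -7.35, -7.01 and -9.30 in control livers. GT_Rn_GE_00060562 read -6.82, -7.22, -7.31 and -7.01 in high-fat and -7.71, -7.44, -9.14 and -8.14 in control livers. The groups overlapped at the first of these probes, where high-fat replicate 2 was below 3 control arrays, and did not overlap at the second.

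The 2 transcription factor genes gave log2 changes below 0 at all 4 probes, none past the adjustment. Stat5a probe A_42_P652586 (chr10:89819609-89819668, plus strand) read -1.39, -1.71, -1.74 and -1.90 in high-fat and -0.90, -0.98, -0.89 and -1.64 in control livers. Control replicate 4 lay among the high-fat arrays, and the other 3 control arrays lay above all of them. The resulting log2 change was -0.58 (-1.05 to -0.12, adjusted p = 0.23), and -0.61 and -0.56 within the rows. The dimmer Stat5a probe, GT_Rn_GE_00174959, was at a log2 change of -0.10 (-0.65 to 0.45, adjusted p = 0.90) and was well above background on 3 arrays of each diet.

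Stat5b, the STAT5 form that carries most of the growth hormone signal in male liver of mice, gave different values by its 2 probes. Probe A_43_P12209 (chr10:89722209-89722268, minus strand) read -3.60, -3.44, -3.75 and -4.27 in high-fat and -3.56, -3.51, -3.55 and -3.60 in control livers. The control arrays were close together and high-fat replicate 4 was the lowest, with a log2 change of -0.21 (-0.63 to 0.20, adjusted p = 0.64), and -0.05 without high-fat replicate 4. GT_Rn_GE_00187901 read -4.32, -5.01, -4.87 and -5.06 in high-fat and -4.23, -4.03, -3.90 and -4.62 in control livers. Its log2 change was -0.62 (-1.12 to -0.12, adjusted p = 0.23). The difference between the 2 probes, 0.41, did not pass (exact permutation p = 0.143, adjusted p = 0.4). Stat5a and Stat5b are close relatives in sequence, so cross-hybridisation between their probes could not be checked here.

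**Figure D3:**
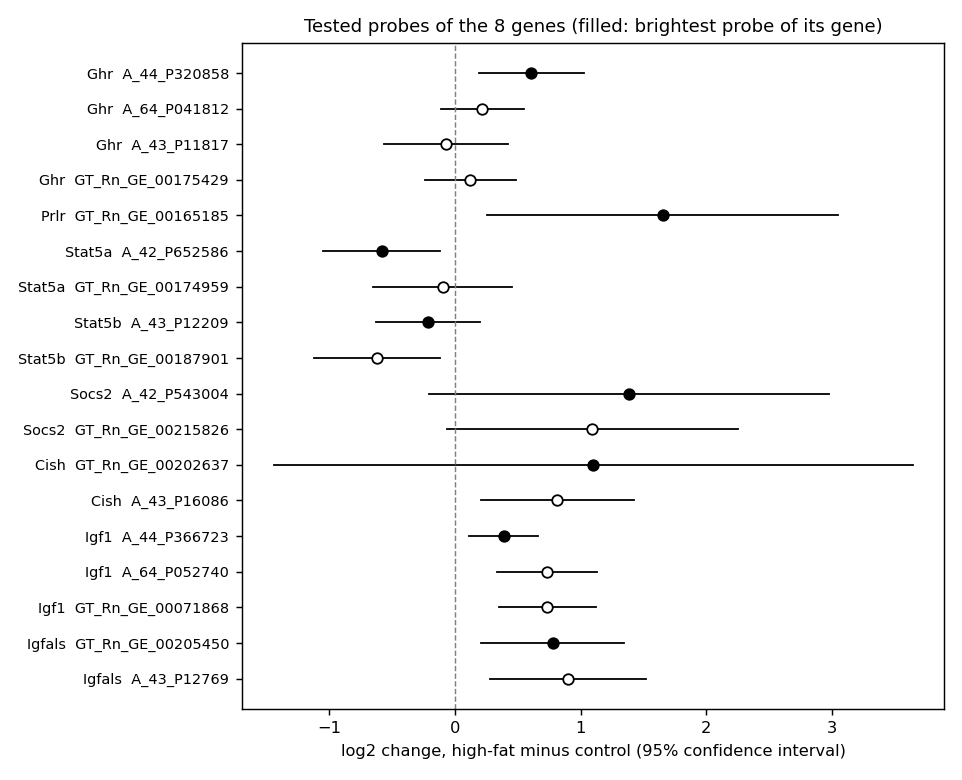
Log2 change, high-fat minus control (x axis), with its 95% confidence interval for the 18 tested probes of the 8 genes, filled for the brightest probe of a gene. Of these, 13 lie above 0, and the intervals of 10 leave out 0, 8 on the higher and 2 on the lower side.

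The feedback inhibitors varied widely between arrays, and none of their probes passed. SOCS2 limits signalling by the growth hormone receptor, and CISH binds phosphorylated receptor tails through the SH2 domain. Socs2 probe A_42_P543004 (chr7:32605827-32605886, minus strand) read -3.21, -2.85, -3.51 and -4.24 in high-fat and -6.65, -5.54, -3.87 and -3.28 in control livers. Control replicates 1 and 2 were far below all other arrays, and replicate 1 was not well above background. Over all arrays the log2 change was 1.38 (-0.21 to 2.97, adjusted p = 0.40). It was 3.06 within slide row 1 and -0.30 within slide row 2. The diet-by-row term was -3.36 (limma, unadjusted p = 0.0012, adjusted p = 0.76 over all probes).

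The other Socs2 probe, GT_Rn_GE_00215826, read -3.92, -3.44, -4.17 and -4.93 in high-fat and -5.87, -6.23, -4.64 and -4.09 in control livers. Control replicates 1 and 2 were again the lowest, with 2.37 and -0.19 within the rows and 1.09 overall (-0.06 to 2.25, adjusted p = 0.35). Without control replicate 1 the change at A_42_P543004 was 0.78, with normexp background correction 0.75, and without the 2 dimmest arrays 0.70. Both of those arrays lay in slide row 1. The other 2 arrays of that row, which were not dim, read -2.85 in high-fat replicate 2 and -5.54 in control replicate 2 at A_42_P543004. That is 1 array per diet, and the part of dimness in the row difference was not tested.

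Cish gave wide spreads at its brightest probe, GT_Rn_GE_00202637: -1.60, 1.49, 1.30 and -2.08 in high-fat and -2.68, -2.72, -1.15 and 1.26 in control livers. High and low arrays occurred in both diets, and the log2 change was 1.10 (-1.44 to 3.64, adjusted p = 0.71), or 2.64 and -0.44 within the rows. Leaving out 1 array at a time gave changes of 0.53 (without high-fat replicate 2) to 1.96 (without control replicate 4).

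The SH2-domain probe of Cish, A_43_P16086 (chr8:112544581-112544640, plus strand), read -3.13, -2.14, -2.14 and -2.48 in high-fat and -3.43, -3.45, -3.50 and -2.76 in control livers. Its log2 change was 0.81 (0.21 to 1.42, adjusted p = 0.20), and 0.81 and 0.82 within the rows. One of its 3 spots read 1.05 to 1.95 log2 units dimmer than the mean of the other 2 on 6 arrays, and within 0.08 of it on high-fat replicate 3 and control replicate 3. That spot was flagged as an outlier, and so dropped, on 4 arrays, 2 of each diet. Left out on all arrays, a choice made after seeing the data, the change was 0.88 (0.30 to 1.47, adjusted p = 0.16).

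Promoter windows (250 bases before to 50 after each gene start, RefSeq, GRCr8) were searched for TTCNNNGAA, the motif bound by STAT5, which reads the same on both strands. The table held 8 windows for 7 of the 8 genes, all but Socs2. Of all 33469 windows, 8.87% held the motif. Cish had 4 copies, starting 241, 230, 136 and 119 bases before the gene start, where 0.0239% of all windows (8 windows) held at least 3. One of the 2 Prlr windows had 1 copy, and Ghr, Igf1, Igfals, Stat5a and Stat5b had no match in this window. The 150 bases of the Cish window that hold the 4 copies (chr8:116850719-116850868, plus strand, GRCr8) are shown with the motif in capitals.
Cish upstream: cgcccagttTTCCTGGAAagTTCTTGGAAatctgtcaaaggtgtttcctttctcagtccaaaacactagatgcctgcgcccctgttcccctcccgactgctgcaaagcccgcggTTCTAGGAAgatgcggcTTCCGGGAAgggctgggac

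Igf1, the gene for insulin-like growth factor 1, read higher on all 4 high-fat arrays than on all 4 control arrays at each of its 3 probes, none of which passed the adjustment. The brightest probe, A_44_P366723 (chr7:24604715-24604774, plus strand), read 6.33, 6.17, 6.08 and 6.17 in high-fat and 5.91, 5.66, 5.83 and 5.81 in control livers. The lowest high-fat array stood above the highest control array. The means were 6.19 ± 0.11 in high-fat and 5.80 ± 0.10 in control livers (SD, n = 4 each), a 1.31-fold difference, or a log2 change of 0.39 (0.11 to 0.66, adjusted p = 0.18), and 0.47 and 0.31 within the rows.

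The coding probe A_64_P052740 (chr7:24587916-24587975, plus strand) read 5.44, 5.46, 5.67 and 5.13 in high-fat and 4.47, 4.49, 4.82 and 4.99 in control livers. Probe GT_Rn_GE_00071868 read 1.65, 2.21, 2.21 and 1.79 in high-fat and 1.09, 1.34, 1.12 and 1.36 in control livers. The groups did not overlap at either. Their log2 changes were 0.73 (0.34 to 1.13, adjusted p = 0.099) and 0.74 (0.35 to 1.12, adjusted p = 0.090), both 1.66-fold. With the variance tied to intensity (eBayes with a trend) these 2 probes passed, at adjusted p = 0.0496 and adjusted p = 0.0468. Averaged over the 3 probes, the change was 0.62 (adjusted p = 0.064).

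Igfals had a higher mean in high-fat livers at both of its probes, neither past the adjustment, with unequal values in the slide rows. GT_Rn_GE_00205450 read 5.07, 4.93, 4.99 and 4.42 in high-fat and 3.74, 3.62, 4.50 and 4.44 in control livers. High-fat replicate 4 lay below control replicates 3 and 4, and the other 3 high-fat arrays lay above all control arrays. The log2 change was 0.78 (0.21 to 1.35, adjusted p = 0.20), or 1.32 within row 1 and 0.24 within row 2. Probe A_43_P12769 (chr10:14130378-14130437, plus strand) read 2.56, 2.25, 2.64 and 1.73 in high-fat and 1.11, 0.94, 1.70 and 1.83 in control livers. Its change was 0.90 (0.28 to 1.52, adjusted p = 0.17), or 1.38 and 0.42 within the rows. The diet-by-row term was -1.08 at GT_Rn_GE_00205450 (limma, unadjusted p = 0.014) and -0.97 at A_43_P12769 (limma, unadjusted p = 0.068). It did not pass for either probe (adjusted p = 0.76 over all probes).

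**Figure D4:**
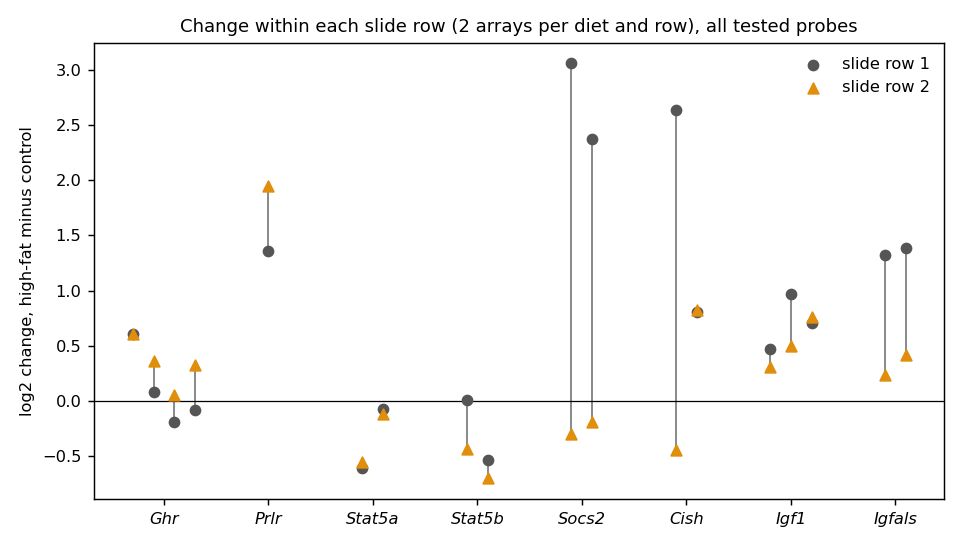
Log2 change, high-fat minus control (y axis), within slide row 1 (circles) and slide row 2 (triangles) for all tested probes of each gene (x axis), with 2 arrays per diet and row. The rows give nearly the same value for the first Ghr probe (0.60 and 0.61), while the Socs2 probes are at 3.06 and 2.37 in row 1 and at -0.30 and -0.19 in row 2.

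Partners of the receptor were tested as a list of 22 genes, all of them measured. None passed, with a median log2 change of -0.10. Jak2, the receptor-bound kinase, had a change of -0.32 (-0.71 to 0.06, adjusted p = 0.41), and its other probe 0.02. Sirpa, a membrane glycoprotein that is phosphorylated by JAK2, was at a log2 change of -0.91 (adjusted p = 0.13), with separate groups. Its other probes were at -0.83 and -0.23. Socs6, of the suppressor of cytokine signalling family, was at 0.40 (adjusted p = 0.21), also with separate groups. Grb10, an adaptor, was at -0.34 (adjusted p = 0.48), and at -0.06 by its other probe.

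In the IGF system, 16 of 20 genes were tested and none passed, with a median of 0.06. Igfbp3, the carrier of IGF-1 in the complex with the acid-labile subunit, read 2.45, 2.59, 2.44 and 2.48 in high-fat and 2.19, 1.22, 1.92 and 2.16 in control livers. The groups were separate, as they were for 11.1% of all tested genes, and the log2 change was 0.62 (0.12 to 1.11, adjusted p = 0.23). Igfbp1, an IGF carrier that insulin represses, read 2.22, 2.02, 0.15 and 4.76 in high-fat and 6.18, 5.03, 3.72 and 2.70 in control livers. These overlapped, with a change of -2.12 (-4.44 to 0.21, adjusted p = 0.37). Igfbp2, another carrier, was at a log2 change of -1.07 (adjusted p = 0.30). Igf2r, the clearance receptor of IGF-2, was at -0.26 (adjusted p = 0.34), lower with separate groups, and Igf1r, the IGF-1 receptor, at -0.14 (adjusted p = 0.82).

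Of 14 male-predominant rat liver genes, 13 were tested. Of these, 1 passed, and it was higher, where 0.35% of all tested genes passed higher. The median log2 change was 0.54, and 11 of the 13 were above 0. Cyp2c13, a cytochrome P450, averaged 5.62 ± 0.19 in high-fat and 4.07 ± 0.29 in control livers (SD, n = 4 each), a log2 change of 1.55 (adjusted p = 0.016). The Cyp2c13 call was lost at about the same size without high-fat replicate 2 (adjusted p = 0.054), high-fat replicate 4 (adjusted p = 0.053) or control replicate 3 (adjusted p = 0.053). Slco1a1, an organic anion transporter, was at a log2 change of 0.54 (adjusted p = 0.076), Cyp2c11, another cytochrome P450, at 0.64 (adjusted p = 0.11), and Mup4 and Mup5, major urinary proteins, at 0.81 (adjusted p = 0.11) and 0.64 (adjusted p = 0.13). Bcl6, a repressor expressed more in male liver, was at a log2 change of 0.10 (-1.17 to 1.37). Not every member was raised: Cyp3a18 was at -0.14, Cyp3a2 at -0.03 and Hsd3b5 at 0.02.

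Of 13 female-predominant genes, 9 were tested, and 2 passed, both lower, where 0.527% of all tested genes passed lower. This list and the male-predominant list were chosen with earlier results of these data known. Cyp2c12, a cytochrome P450, averaged 0.51 ± 0.79 in high-fat and 3.57 ± 0.32 in control livers, a log2 change of -3.07 (adjusted p = 0.018). Sult2al1, a sulfotransferase, averaged 2.19 ± 0.25 in high-fat and 3.46 ± 0.27 in control livers, a change of -1.27 (adjusted p = 0.031). The Cyp2c12 call was lost without control replicate 2 (adjusted p = 0.052) or control replicate 3 (adjusted p = 0.053). The Sult2al1 call was lost without any array other than control replicate 1 (adjusted p = 0.063 to adjusted p = 0.084). Other members had positive changes: Cyp2c7, also a cytochrome P450, was at 3.64 (2.05 to 5.24, adjusted p = 0.058) and its probe A_64_P000452 at 4.01 (adjusted p = 0.048). Sult2a1, a further sulfotransferase, was at a log2 change of 1.33 (adjusted p = 0.26), Cd36, a fatty acid transporter, at -1.0 (adjusted p = 0.22) and Sult2a2 at -0.62 (adjusted p = 0.47). The median was -0.04. Members of the Cyp2c, Mup and Sult2a families are near copies of each other, so the assignment of signal to a single gene is uncertain.

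**Figure D5:**
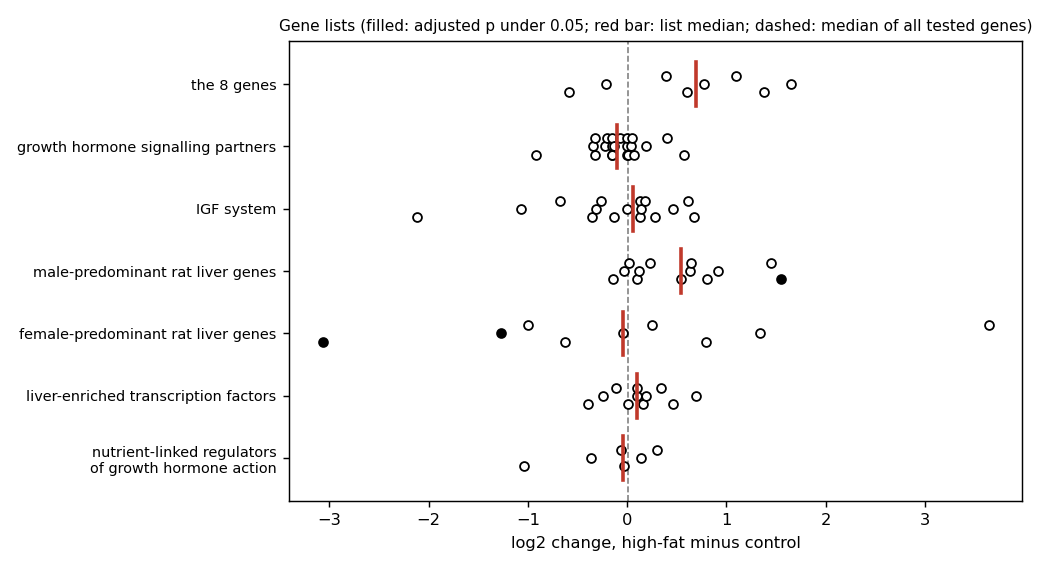
Log2 change, high-fat minus control (x axis), of each tested gene in the 8-gene axis and in 6 lists, filled where the adjusted p was under 0.05, with the list median as a red bar and the median of all tested genes as a dashed line. The medians of the 8 genes (0.69) and of the male-predominant list (0.54) lie above the other list medians, and the 3 filled points are Cyp2c13, Cyp2c12 and Sult2al1.

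Liver-enriched transcription factors, which act with STAT5 on hepatocyte genes, were all tested and none of the 11 passed (median 0.10). Hnf4a was at a log2 change of -0.39 (adjusted p = 0.44), and at 0.11 by its other probe. Foxa3 was at a log2 change of 0.46 (adjusted p = 0.67) and Cebpd at -0.24 (adjusted p = 0.53). Of 8 nutrient-linked regulators of growth hormone action, 6 were tested and none passed (median -0.05). Fgf21, a liver hormone that lowers growth hormone signalling in mice, was at a log2 change of -1.04 (-2.26 to 0.18, adjusted p = 0.41), Fgfr4 at 0.30, Ppargc1a at -0.36 and Insr, the insulin receptor gene, at 0.14.

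The genes whose levels followed Igf1 most closely over the 8 arrays, among 11655 genes with a symbol, were Phkg1 (Pearson r = 0.97), Ikbkb, Prss23, B9d2 and Slc15a4 (each 0.96). With each diet centred on its own mean, these correlations were 0.85, 0.81, 0.76, 0.81 and 0.85. For Ghr they were Nfil3 (0.98), Clec1b and Slc16a4 (0.95 each), Gata2 (0.94) and Avpr1a (0.93), and 0.94, 0.92, 0.84, 0.90 and 0.80 with diets centred. These are descriptions over 8 arrays that share 1 slide and 1 scaling. The genes were picked as the highest of 11655 over so few arrays, so picking alone can give high values. The centred values use the same arrays and the genes already picked, so they are not a separate check. Ghr stands here by its extracellular probe alone, whose difference the other Ghr probes did not share in size.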

How the data were processed

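RNA from 8 rat liver samples was hybridised to 1-colour arrays. Per the file headers, Agilent Feature Extraction 10.7.3.1 made the deposited intensity values, with background subtracted, trends within the array removed and dim spots replaced by a surrogate value. Per the file headers, each spot also has 0 or 1 flags for background, saturation and outliers. The authors' deposited log2 table served as an alternative. Its scaling is not given in the sources used here. Its columns correlated at 0.999 or more with the scanner values scaled to the 75th percentile of all probes, and their medians were, in replicate order, -3.14, -3.20, -3.16 and -3.20 on the high-fat diet and -3.10, -3.21, -3.14 and -3.17 on the control diet. It was therefore on a log2 scale, uncentred per probe, and higher for brighter spots.

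Outlier spots were left out and spots of a probe averaged on the log2 scale. Each array was set to the 75th percentile over probes well above background on all 8 arrays (47.9% of 46883), and the 31535 probes that cleared background on 4 or more arrays were tested with limma 3.58.1 (R 4.3.3). The Benjamini-Hochberg threshold was 0.05. Adjusted p-values in the text come from that fit unless another test is named. The number of arrays limits the precision. The files place 11 of the 20 probes on rn4. Differences between probes of a gene were tested by exact permutation over 70 arrangements, chosen after seeing the data, as was the diet-by-row term. The tests were tried on simulated data.

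The 8 genes, the lists and the tests were chosen with earlier results of these data known. Named are all probes of the 8 genes, and from each list those that passed, up to 4 others by smallest p, besides a fixed set of genes. Cell type markers, single probes of list genes and the genes named by likeness are given besides. Cyp3a18, Cyp3a2 and Hsd3b5 were added after their values were seen, and the alternatives and the outlier test were not run for them. The value of 1 list gene is not reported here. Alternatives changed background correction, scaling, source table, dim-probe filter, variance model, array weights, blocks, gene summary, threshold and each array left out.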

Additional observations from a re-analysis of the deposited data

Results flagged for a closer look

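Of 94 groups of 4 arrays examined for the genes named here, 6 had 1 array whose gap to the nearest other was too large a share of the group's range by Dixon's test. Chance alone marks about 1 in 20 such groups. Stat5a in control replicate 4 was at -1.64, with the other 3 control arrays between -0.98 and -0.89. Cish probe A_43_P16086 stood at -2.76 in the same control replicate 4, with the others between -3.50 and -3.43. Ghr probe A_43_P11817 was at -2.33 in high-fat replicate 3, with the others between -2.80 and -2.76. Stat5a probe GT_Rn_GE_00174959 was at -6.54 in that high-fat replicate 3, with the others between -7.11 and -7.07. Sult2a1 was at -0.019 in control replicate 1, with the other 3 between 1.82 and 2.12. Sult2a2 was at -6.76 in high-fat replicate 1, with the others between -5.98 and -5.86.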

How the results depend on the processing

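The 8 genes, by brightest probe or probe mean, kept the sign of their log2 change in the 21 or 22 alternatives run for each. Some could not turn it. The variance models and the blocks, which are balanced over diet, leave the log2 change as it is. The dim Cish spot lies outside the brightest probes. Of the 8 genes, 0 passed in any alternative, and 0 at the threshold of 0.1, which was applied to the brightest probes. Igf1 probes A_64_P052740 and GT_Rn_GE_00071868 were under 0.1 in the main fit (adjusted p = 0.099 and adjusted p = 0.090). Both passed 0.05 with an eBayes trend. Across the alternatives, adjusted p ranged between 0.11 and 0.54 for Ghr, 0.064 and 0.42 for Igf1, and 0.13 and 0.40 for Igfals. The number of genes called over all tested genes, 163 as reported, was 253 with normexp background correction, 5 with no filter on dim probes, 331 with probes well above background on all 8 arrays, 326 with an eBayes trend, 98 with slide row as a block, 14 without the 2 dimmest arrays and 504 at an adjusted p under 0.1. Leaving out any 1 of the 8 arrays gave 16 (high-fat replicate 2) to 89 (high-fat replicate 1). With the replicate number as a block, 1 gene passed and none of the 8. The deviations of same-numbered samples correlated at -0.12, 0.26, 0.23 and 0.01. The highest correlation of each high-fat replicate with a control of another number was 0.25, 0.29, 0.13 and 0.09. These values do not settle whether the numbers pair the samples, and the main fit did not pair them. Signs turned for 3 other probes of the 8 genes and for 3 list genes, none of which passed. Ghr probe A_43_P11817 was at 0.10 without the 2 dimmest arrays and at -0.20 to 0.060 with 1 array left out, and GT_Rn_GE_00175429 at -0.00034 to 0.23. Stat5a probe GT_Rn_GE_00174959 was at 0.016 with quantile normalization and at -0.31 to 0.0098 with 1 array left out. Igf1r was at 0.031 and Ppargc1a at 0.36 without the 2 dimmest arrays. With 1 array left out these were at -0.27 to 0.012 and -0.84 to 0.12, and Bcl6 at -0.32 to 0.48 (0.85 without the 2 dimmest arrays). Of 22 alternatives, Cyp2c12 did not pass in 5, Cyp2c13 in 6 and Sult2al1 in 10. The cause was not tested. Low signal over background limits Prlr, Socs2 and the dimmer Stat5a probe.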
